A study of Mus musculus with 1 sample.

Results

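The 68 genes described here encode the semaphorins, ephrins, slits and netrins and the receptors that bind them, and their RNA was counted in single cells of the mouse fetal testis. They were chosen by symbol alone from the 22631 features of the matrix. The rule took every semaphorin, plexin, neuropilin, ephrin, Eph receptor, Slit, Robo, netrin and Unc5 gene. No measured value entered the rule, but earlier results of these data were known when it was set. The group comprised 31 semaphorin, plexin and neuropilin genes, 22 ephrin and Eph genes, 7 Slit and Robo genes and 8 netrin and Unc5 genes. By role, 35 encode ligands and 33 encode receptors. In the cells kept for analysis, 57 of the 68 had at least 50 UMIs and are called measured (30 ligands and 27 receptors), the remaining 11 had between 6 and 37 UMIs, and none was unseen.

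The study asked what the nuclear receptor NR5A1 does in fetal Sertoli cells, and the library analysed here was its control testis library, 1 sample with no replicate. Its label gives the genotype as WT and the age as E14.5. Cells of 12 controls, which the paper counts as whole testes, were combined into 1 suspension. The methods describe the control fetuses as *Nr5a1* L2/L2, carrying the loxP-flanked gene without the Cre transgene, on a mixed C57BL/6 and 129/SvPass background, and the design text names E13.5 beside E14.5. Individual fetuses cannot be told apart in a pooled suspension. No mutant cells are described here. Messenger RNA was captured in droplets by its 3′ end, and counts are of molecules told apart by a unique molecular index (UMI), so that a level is a count of molecules and is not divided by transcript length.

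The filters kept 3822 cells holding 54732378 of the 72595083 UMIs, with a median of 12068 UMIs per cell and a range of 2266 to 53657. The cells fell into 16 clusters, which were computed without the 68 genes and named from marker lists. There were 854 Sertoli-like, 251 germ-like, 1368 interstitial-like, 314 Leydig-like, 516 peritubular myoid-like, 146 coelomic epithelium-like, 102 perivascular-like, 37 immune-like, 37 erythroid-like, 25 rete testis-like and 20 endothelial-like cells, and 152 cells stayed without a name. The marker lists for neural and glial cells and for mesonephric epithelium named no cluster. The level of a gene in a class is its UMIs per 1000000 UMIs of all that class's cells (CPM), given with an exact Poisson 95% interval. A fold compares a class with all other kept cells pooled, or with another group where that is stated. These intervals hold the counting error alone. With 1 library there are no replicates, and nothing was tested.

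Guidance cues were first described in the growing nervous system, where they attract or repel axons, and they also shape vessels and epithelia. Semaphorins signal through plexins, with neuropilins as co-receptors for most secreted class 3 semaphorins. Ephrins are bound to the cell surface and signal to Eph receptors on touching cells, and in the opposite direction as well. Slits are secreted and usually repel cells that carry Robo receptors, while netrins act through *Dcc*, *Neo1* and the Unc5 receptors. In the fetal testis, Sertoli cells enclose the germ cells in cords, peritubular myoid cells wrap those cords, and Leydig cells, stromal progenitors and vessels lie in between.

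Promoters are shown for 4 of the genes that were highest in Sertoli-like cells, because these genes were high in the same class. *Ntn4* and *Sema7a* had the largest differences, *Sema6c* the highest level, and *Ephb1* held the one motif match. The windows run from 250 bases before to 50 bases after a RefSeq start, on GRCm38.p6, and are written 5′ to 3′ on the strand of the gene in the order chr10:93640799-93641098 (plus strand), chr9:57939862-57940161 (plus strand), chr3:95160170-95160469 (plus strand) and chr9:102354644-102354943 (minus strand).
*Ntn4*: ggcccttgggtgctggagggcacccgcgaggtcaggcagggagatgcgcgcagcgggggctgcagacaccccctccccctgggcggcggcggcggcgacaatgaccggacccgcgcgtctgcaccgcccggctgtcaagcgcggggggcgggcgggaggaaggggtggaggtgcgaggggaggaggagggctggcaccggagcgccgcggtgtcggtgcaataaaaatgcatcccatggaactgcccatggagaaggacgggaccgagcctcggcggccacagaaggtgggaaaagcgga
*Sema7a*: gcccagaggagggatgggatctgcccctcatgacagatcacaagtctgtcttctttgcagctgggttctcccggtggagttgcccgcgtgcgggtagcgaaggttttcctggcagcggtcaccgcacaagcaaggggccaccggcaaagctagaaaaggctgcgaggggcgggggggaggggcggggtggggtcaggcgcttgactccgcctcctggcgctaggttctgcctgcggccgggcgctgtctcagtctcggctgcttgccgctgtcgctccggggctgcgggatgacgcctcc
*Sema6c*: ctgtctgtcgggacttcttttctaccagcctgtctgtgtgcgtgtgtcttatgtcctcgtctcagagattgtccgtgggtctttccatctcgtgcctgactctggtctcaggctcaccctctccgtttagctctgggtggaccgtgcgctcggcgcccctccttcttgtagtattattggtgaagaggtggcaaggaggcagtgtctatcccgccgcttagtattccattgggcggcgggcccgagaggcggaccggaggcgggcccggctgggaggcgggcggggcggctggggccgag
*Ephb1*: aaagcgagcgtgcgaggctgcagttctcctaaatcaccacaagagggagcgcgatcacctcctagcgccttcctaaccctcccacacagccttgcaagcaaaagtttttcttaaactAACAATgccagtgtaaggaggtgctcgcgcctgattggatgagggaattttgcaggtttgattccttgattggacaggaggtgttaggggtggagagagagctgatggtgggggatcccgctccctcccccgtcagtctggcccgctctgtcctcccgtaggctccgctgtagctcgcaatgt
The capitals in the *Ephb1* window mark AACAAT, the core of the sequence that SOX proteins bind. Of the 10 genes called in Sertoli-like cells further on, 8 had a window in the RefSeq table, 9 windows in all, and AACAAT or its reverse ATTGTT was in 1 of the 9, compared with 10.7% of all 32851 promoter windows. The letters AAGGTCA, a site bound by NR5A1 and other nuclear receptors, or TGACCTT on the other strand, were in 0 of the 9 and in 4.72% of all windows. These counts describe the letters in short windows and not binding. The windows of *Ntn4*, *Sema7a*, *Sema6c* and *Ephb1* had a GC content of 72%, 67.3%, 62.7% and 55.7%, against a median of 52.7% over all windows, and held 31, 23, 23 and 14 CpG dinucleotides against a median of 7. *Sema6c* has a second window, chr3:95164089-95164388, which is not printed and had a GC content of 61.3% and 3 CpG dinucleotides.

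The 57 measured genes were spread over the cell classes of the testis. A leading class, the one with the highest level among the 9 named classes of at least 30 cells, was Sertoli-like for 15 genes, coelomic epithelium-like for 15, perivascular-like for 9, interstitial-like for 8, peritubular myoid-like for 5, Leydig-like and immune-like for 2 each and germ-like for 1. These counts carry no fold limit and include leads that overlapped the next class. No share over all genes was computed for them. Where a class is called highest or next highest further on, these 9 are meant unless another class is named, and the 152 unnamed cells are given apart. In 27 of the 57, the leading class was at least 4-fold above all other cells, and the same held for 25.1% of all 13170 genes with at least 50 UMIs. The 27 comprised 10 genes led by Sertoli-like cells (5.05% of all genes), 8 by coelomic epithelium-like cells (1.85%), 3 by interstitial-like cells (1.34%), 3 by perivascular-like cells (1.22%) and 1 each by Leydig-like (2.67%), germ-like (5.88%) and immune-like cells (4.99%). In 25 of the 57, the interval of the leading class lay above that of every other ranked class (35.2% of all genes). Peritubular myoid-like (0.782%) and erythroid-like cells (1.29%) led 0 genes at this fold. A gene of low level reaches 50 UMIs only where some class transcribes it, so that these counts describe the measured genes and not all 68.

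**Figure D1:**
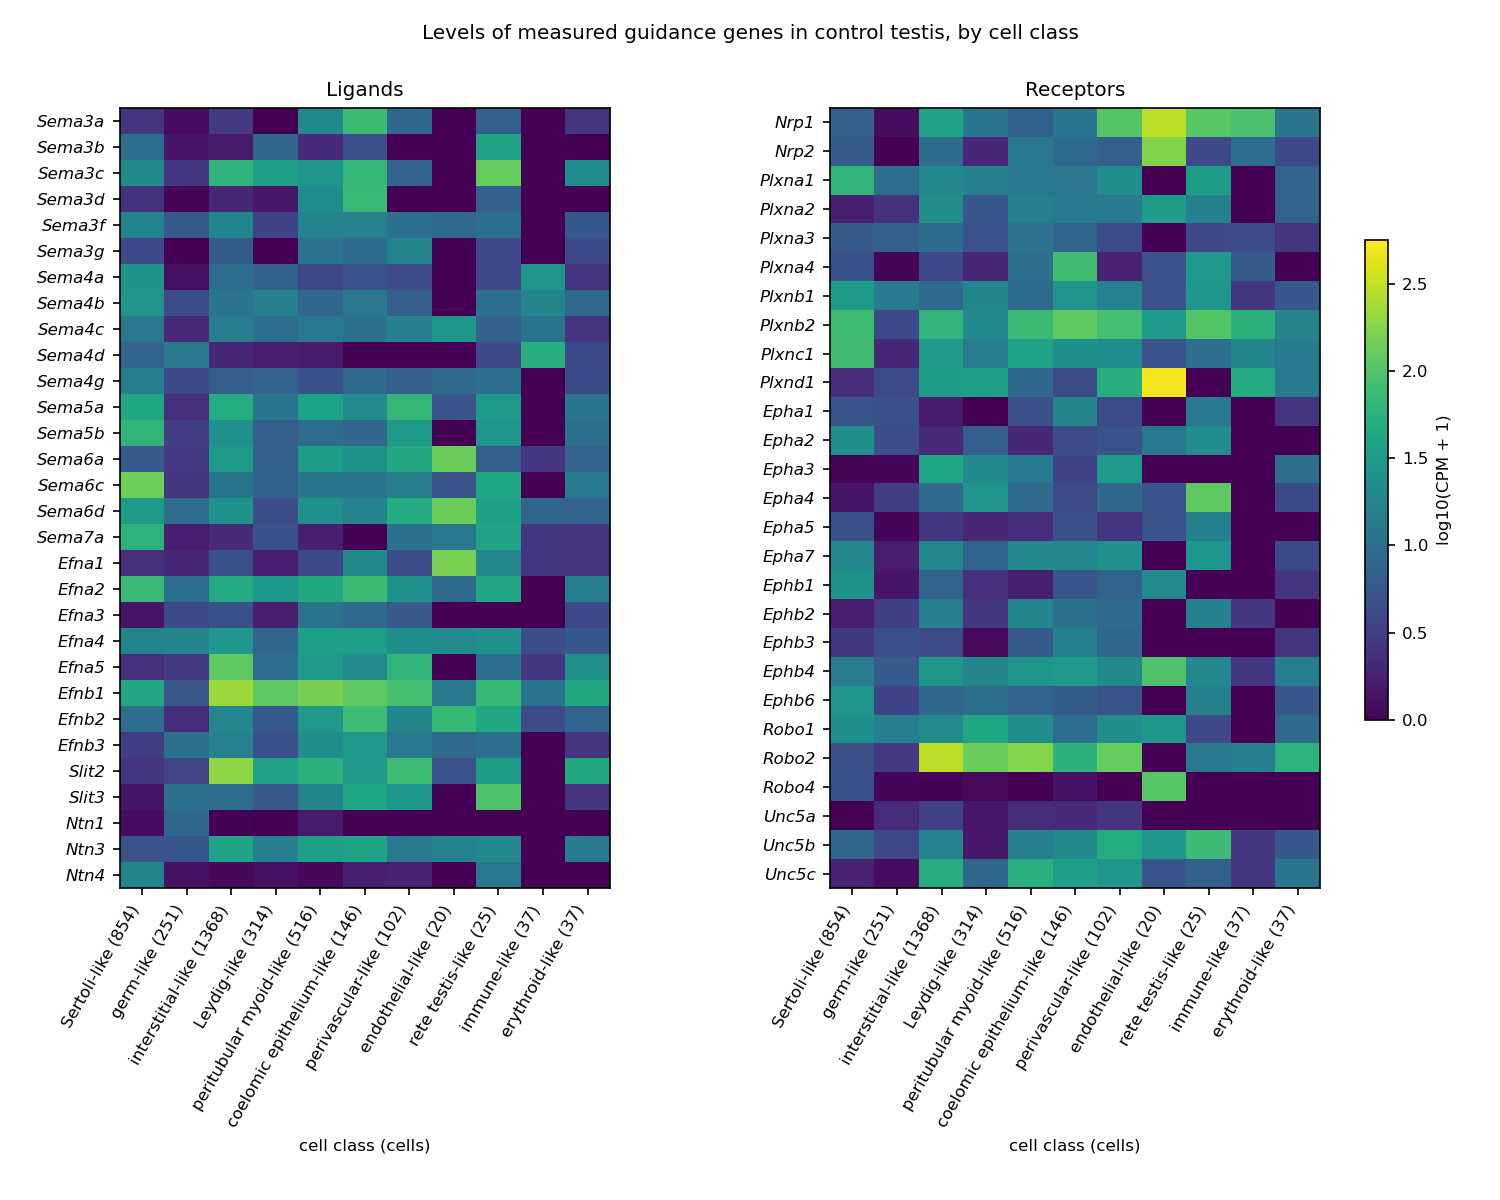
Each row is 1 of the 57 measured guidance genes (ligands left, receptors right), each column a cell class with its number of cells, and colour gives log10 of CPM plus 1 on a scale from 0 upwards. The Sertoli-like column is bright at Sema6c, the coelomic epithelium-like column at Sema3a, Sema3d and Plxna4, the interstitial-like column at Slit2, Efnb1 and Robo2, and the endothelial-like column at Plxnd1 and Nrp1.

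RNA set free by broken cells can give a low level of an abundant gene in every class. It was gauged in each class from the markers of Sertoli, germ and Leydig cells that belong to another lineage, as the median of their level in percent of the level in all kept cells pooled. That median was 6.85% in Sertoli-like, 2.26% in germ-like, 2.86% in interstitial-like and 5.92% in Leydig-like cells. Above the level that these percentages give were 44 of the 57 measured genes in Sertoli-like cells, 39 in germ-like cells, 43 in Leydig-like cells, 52 in coelomic epithelium-like cells, 54 in interstitial-like cells and 54 in peritubular myoid-like cells. In the 37 immune-like cells, whose intervals were wide, the number was 16. The same numbers were not computed over all genes, so that no share stands beside them.

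Positions here and further on are those of the genes in the GENCODE annotation of GRCm38. Sertoli-like cells were highest in several semaphorins of the membrane-bound classes. *Sema6c*, a transmembrane semaphorin (chr3:95160457-95174024, plus strand), was at 136 CPM (95% interval 130.1 to 143) in this class, and in the other named classes of at least 30 cells it lay between 0 and 13.1 CPM. *Sema7a*, the semaphorin anchored to the membrane by a lipid (chr9:57940112-57962865, plus strand), was at 59.2 CPM (55.0 to 63.5) in Sertoli-like cells and between 0 and 9.85 CPM in the others. Over all other cells the difference was 16.0-fold (14.2 to 17.9) for *Sema6c* and 29.2-fold (23.3 to 36.9) for *Sema7a*. *Sema5b*, a transmembrane semaphorin with thrombospondin repeats, was at 61.7 CPM (57.5 to 66.2), 4.97-fold (4.45 to 5.57) over the other cells, and was also present in perivascular-like and interstitial-like cells at 30.4 and 23.8 CPM. *Sema3b*, a secreted semaphorin, was low at 8.88 CPM (7.33 to 10.7) and came close to that in Leydig-like cells at 7.02 CPM (5.04 to 9.53). Its log2 fold over the other cells was 2.13, and 1.83 to 1.90 with looser outlier filters or without doublet removal, under the 4-fold limit.

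*Ntn4*, a laminin-related netrin found in basement membranes (chr10:93640681-93747207, plus strand), had the largest difference of the Sertoli-led genes. Sertoli-like cells held 16.4 CPM (95% interval 14.3 to 18.8), and it was at no more than 0.821 CPM in any other named class of at least 30 cells, 43.1-fold (25.9 to 76.7) over the other cells. Of its 227 UMIs, 211 were in Sertoli-like cells.

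The receptors led by Sertoli-like cells at 4-fold were *Plxna1*, *Epha2*, *Ephb1*, *Ephb6* and *Robo4*. *Plxna1*, a plexin shared by many semaphorins, was at 61.3 CPM (57.0 to 65.7) in Sertoli-like cells against 21.3 CPM in perivascular-like cells, the next class, and 4.44-fold (3.98 to 4.95) over the other cells. *Plxnc1*, the receptor of *Sema7a*, was at 80.5 CPM (75.7 to 85.6) against 38.5 CPM in peritubular myoid-like cells, and its 3.82-fold (3.48 to 4.18) difference lay just under the 4-fold limit. The Eph receptors were lower in level. *Epha2*, *Ephb1* and *Ephb6*, the last of which lacks kinase activity, were at 22.7, 24.2 and 27.1 CPM in Sertoli-like cells. They stood 8.34-fold (6.69 to 10.4), 7.75-fold (6.30 to 9.58) and 4.42-fold (3.75 to 5.22) above the other cells. *Robo4*, known as the endothelial Robo, was called in Sertoli-like cells at 3.90 CPM (2.89 to 5.14), but the 20 endothelial-like cells, too few to be ranked, held 104 CPM (67.9 to 152). Its log2 fold in Sertoli-like cells was 2.44, and 0.92 without doublet removal, where 45 cells were endothelial-like.

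Counting cells instead of molecules gave a difference in the same direction. *Sema6c* was seen in 80.8% (78.0 to 83.4) of Sertoli-like cells and in 5.58% (3.08 to 9.18) of germ-like cells, although germ-like cells were deeper, with a median of 36155 UMIs against 14310. After every cell was thinned to 5000 UMIs, which left out 15 Sertoli-like and 4 germ-like cells, the shares were 49.3% and 1.62%. For *Sema7a* the thinned shares were 28.5% of Sertoli-like and 0% of germ-like cells, and for *Plxnc1* they were 32.4% and 0%. A further 63 shallow cells with Sertoli markers held *Sema6c* at 40.4 CPM and *Sema7a* at 20.2 CPM. They stayed unnamed because their median of 3181 UMIs was under 1/3 of the median over all kept cells and no Sertoli marker was among their 10 leading genes.

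To set the cell inside the cord against the tissue outside it, Sertoli-like cells were compared with the stroma, meaning interstitial-like, Leydig-like and peritubular myoid-like cells pooled. At least 2-fold with intervals that did not overlap, 18 of the 57 measured genes were higher in Sertoli-like cells (14.4% of all genes) and 22 were lower (16.6%), so that 40 were apart in one direction or the other (30.9%). The ligands split into 9 higher and 13 lower, and the receptors into 9 and 9. The median log2 fold of Sertoli-like cells over stroma was -0.54 for the measured genes and 0.04 for all genes.

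On the Sertoli-like side, the 9 ligands were 8 semaphorins and 1 netrin. *Sema6c* was 14.0-fold (12.3 to 16.0), *Sema7a* 35.3-fold with a lower bound of 26.0, *Sema4d* 7.91-fold (4.90 to 13.3) and *Ntn4* 86.4-fold (36.4 to 269) higher than in stroma, and the others were *Sema3b*, *Sema5b*, *Sema4a*, *Sema4b* and *Sema4g*. Of the 9 receptors, *Epha2* was 10.6-fold (7.97 to 14.4) and *Ephb1* 6.37-fold (5.07 to 8.06) higher, and the others were *Ephb6*, *Epha1*, *Epha5*, *Plxna1*, *Plxnb1*, *Plxnc1* and *Robo4*. Ephrin and Slit ligands were absent from this side. Of the 5 measured class 4 semaphorins, which are transmembrane proteins, 4 were on this side. *Sema4a* was at 25.8 CPM in Sertoli-like cells and 6.74 CPM in stroma, and *Sema4b* at 26.3 and 10.5 CPM.

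The 22 genes higher in stroma included 6 ephrins, both measured Slits and their receptor *Robo2*. *Slit2* was at 1.71 CPM in Sertoli-like cells and 123 CPM in stroma, 71.7-fold (47.3 to 115) higher in stroma. *Robo2* was at 3.82 and 228 CPM, 59.8-fold (45.1 to 80.9) higher in stroma, and *Slit3* at 0.468 and 9.98 CPM. In Sertoli-like cells *Slit2*, *Slit3* and *Robo2* lay below their estimated free-RNA levels of 4.71, 0.683 and 8.11 CPM. For *Slit2* and *Robo2* the upper bounds in these cells, 2.60 and 5.05 CPM, were also below the estimate. The estimate is thus too high for at least these 2 genes. The number of genes above it in Sertoli-like cells may therefore be too low. Among the ephrins, *Efna5* was 50.2-fold (31.7 to 84.9) and *Efnb1* 3.99-fold (3.65 to 4.36) higher in stroma, and *Efna1*, *Efna3*, *Efnb2* and *Efnb3* were also higher there. Among the Eph receptors, *Epha3* stood out, with 1 UMI in all Sertoli-like cells and 29.7 CPM in stroma. The ratio of 382-fold (68.3 to 15092) rests on that 1 UMI and was taken without a floor. *Unc5c*, a repulsive netrin receptor, was at 0.779 CPM in Sertoli-like cells and 42.5 CPM in stroma. Its upper bound in Sertoli-like cells, 1.43 CPM, was also below its estimated free-RNA level of 1.67 CPM. *Unc5a* had 0 UMIs in Sertoli-like cells, with an interval up to 0.2875 CPM, and was at 1.75 CPM in stroma. The rest were *Sema3a*, *Sema3c*, *Sema3d*, *Sema6a* and *Ntn3* among the ligands and *Epha4*, *Ephb2*, *Nrp1*, *Plxna2* and *Plxnd1* among the receptors.

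**Figure D2:**
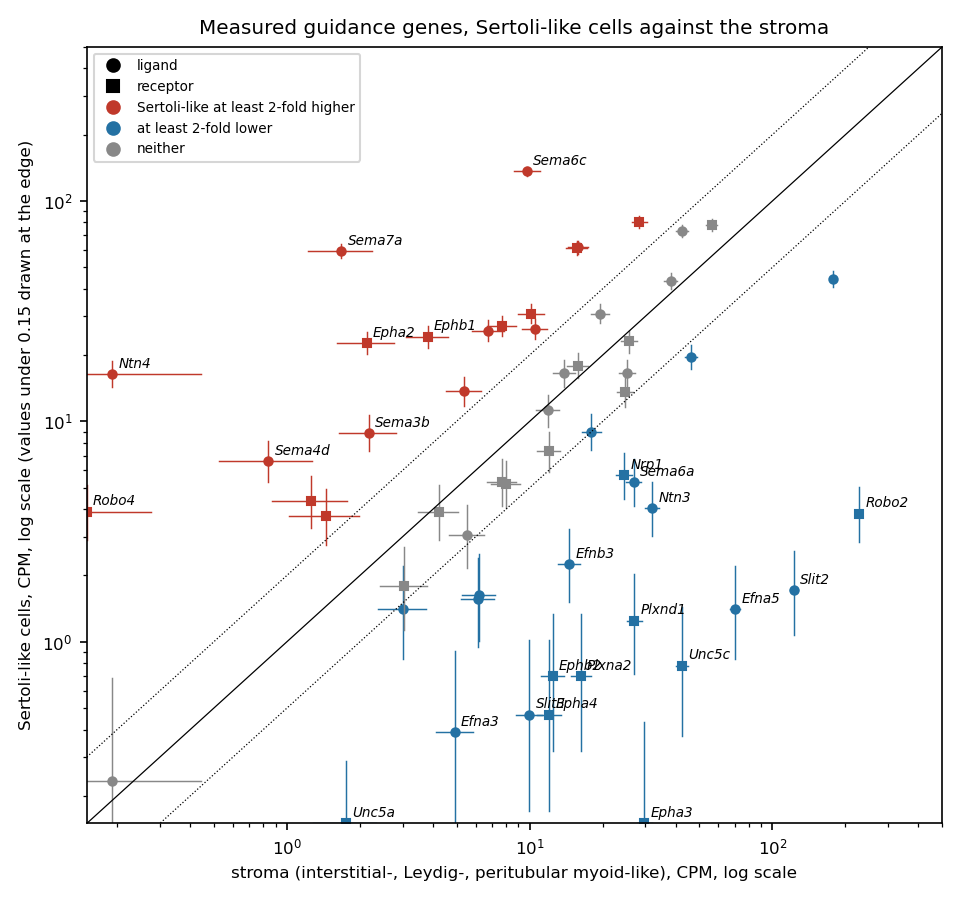
Each point is 1 of the 57 measured guidance genes, with its level in the pooled stroma on the horizontal and in Sertoli-like cells on the vertical axis (CPM, log scales), circles for ligands and squares for receptors, and bars for exact 95% Poisson intervals. Above the upper dotted line of a 2-fold difference lie 18 genes in red, Sema6c highest. Below the lower one lie 22 genes in blue, with Robo2 farthest to the right and Epha3 and Unc5a drawn at the lower edge.

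As a share of all UMIs, most guidance genes were lower in germ-like cells than in the stroma. Germ-like cells were deeper, with a median of 36155 UMIs against 9288 to 16210 in the stromal classes. Molecules per cell therefore differed less than CPM for the lower genes. Of the 57 measured genes, 39 were lower than in stroma (32.7% of all genes) and 3 were higher (19%), with a median log2 fold of -2.41 against -0.26 for all genes. The 3 higher genes were *Ntn1*, *Sema4d* and *Epha1*. *Ntn1*, the founding netrin (chr11:68209364-68400823, minus strand), was at 7.60 CPM (95% interval 5.89 to 9.65) in germ-like cells and at or under 0.583 CPM in each other named class, 26.8-fold (14.7 to 53.0) over the other cells. The 37 immune-like cells had 0 UMIs, with an interval up to 6.41 CPM, and the 152 unnamed cells held 4.60 CPM. It was seen in 23.1% (18.0 to 28.8) of germ-like cells, but in 1.62% of them at 5000 UMIs per cell. The netrin receptors *Unc5b* and *Unc5c* were at 2.95 and 0.227 CPM in the same cells, the second of them below the free-RNA level of 0.550 CPM.

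*Sema4d*, a transmembrane semaphorin known from lymphocytes, was at 12.0 CPM (9.84 to 14.5) in germ-like cells and 0.838 CPM in the stroma, 14.4-fold lower, and at 53.9 CPM (36.6 to 76.4) in immune-like cells, its leading class. Its receptors differed in germ-like cells, where *Plxnb1* was at 12.8 CPM and *Plxnb2* at 3.06 CPM. *Slit3* was at 9.75 CPM (7.80 to 12.0) in germ-like cells, above their free-RNA level of 0.225 CPM, while Sertoli-like cells held 0.468 CPM. *Robo1* was at 14.1 CPM (11.7 to 16.8) in germ-like cells. Both neuropilins were near absence there, *Nrp1* with 2 UMIs and *Nrp2* with 0.

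The 146 coelomic epithelium-like cells, which resemble the surface layer of the gonad, led 8 genes at 4-fold (2.05% of all genes were 4-fold higher in this class), and for *Sema3a*, *Sema3d* and *Plxna4* the difference was far larger than 4-fold. *Sema3a*, the classical secreted repellent (chr5:13125414-13602565, plus strand), was at 75.4 CPM (95% interval 65.4 to 86.5) there and at 19.8 CPM (16.6 to 23.4) in peritubular myoid-like cells, the next class. *Sema3d*, a secreted relative that lies near it on the same chromosome (chr5:12383385-12588948, plus strand), was at 70.2 CPM (60.6 to 80.9) and again next highest in peritubular myoid-like cells at 21.0 CPM (17.7 to 24.7). Over all other cells the folds were 18.2-fold (14.9 to 22.1) for *Sema3a* and 18.7-fold (15.3 to 23.0) for *Sema3d*. In the other named classes of at least 30 cells both genes were at 7.38 CPM or less, and in the 152 unnamed cells *Sema3a* was at 17.5 CPM (10.5 to 27.3) and *Sema3d* at 10.1 CPM (5.05 to 18.1). *Plxna4*, a plexin that serves class 3 semaphorins with neuropilins, was at 80.5 CPM (70.2 to 91.9) in the coelomic epithelium-like cells, 23.3-fold (19.0 to 28.5) over all other cells, and at 9.47 CPM in peritubular myoid-like cells. The neuropilins were low in this class, with *Nrp1* at 10.7 and *Nrp2* at 7.72 CPM. All 8 interstitial and all 7 peritubular myoid markers were also seen in this class, at summed levels of 1688 and 827 CPM. In interstitial-like and peritubular myoid-like cells the same lists summed to 2516 and 3686 CPM. The part of stromal RNA in the levels of the coelomic epithelium-like cells was not tested.

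The other genes led by coelomic epithelium-like cells at 4-fold were *Efnb2* at 78.3 CPM (68.2 to 89.6), *Slit3* at 42.3 CPM (34.9 to 50.8), *Efna1*, *Epha1* and *Ephb3*. *Efnb2* marks arterial vessels elsewhere, and it was at 68.0 CPM (39.6 to 109) in the endothelial-like cells, so that its intervals in both classes overlapped. *Efna1* was at 19.1 CPM and far higher, at 156 CPM (111 to 213), in the endothelial-like cells. Without doublet removal the log2 fold of *Efna1* in coelomic epithelium-like cells was 1.80 in place of 2.65, under the 4-fold limit. *Slit3* was likewise higher in the 25 rete testis-like cells, at 96.2 CPM (65.8 to 136). *Plxnb2*, a widely used plexin, was highest in coelomic epithelium-like cells at 115 CPM (103 to 129), but it was at 77.5 CPM in Sertoli-like and 75.0 CPM in peritubular myoid-like cells as well.

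**Figure D3:**
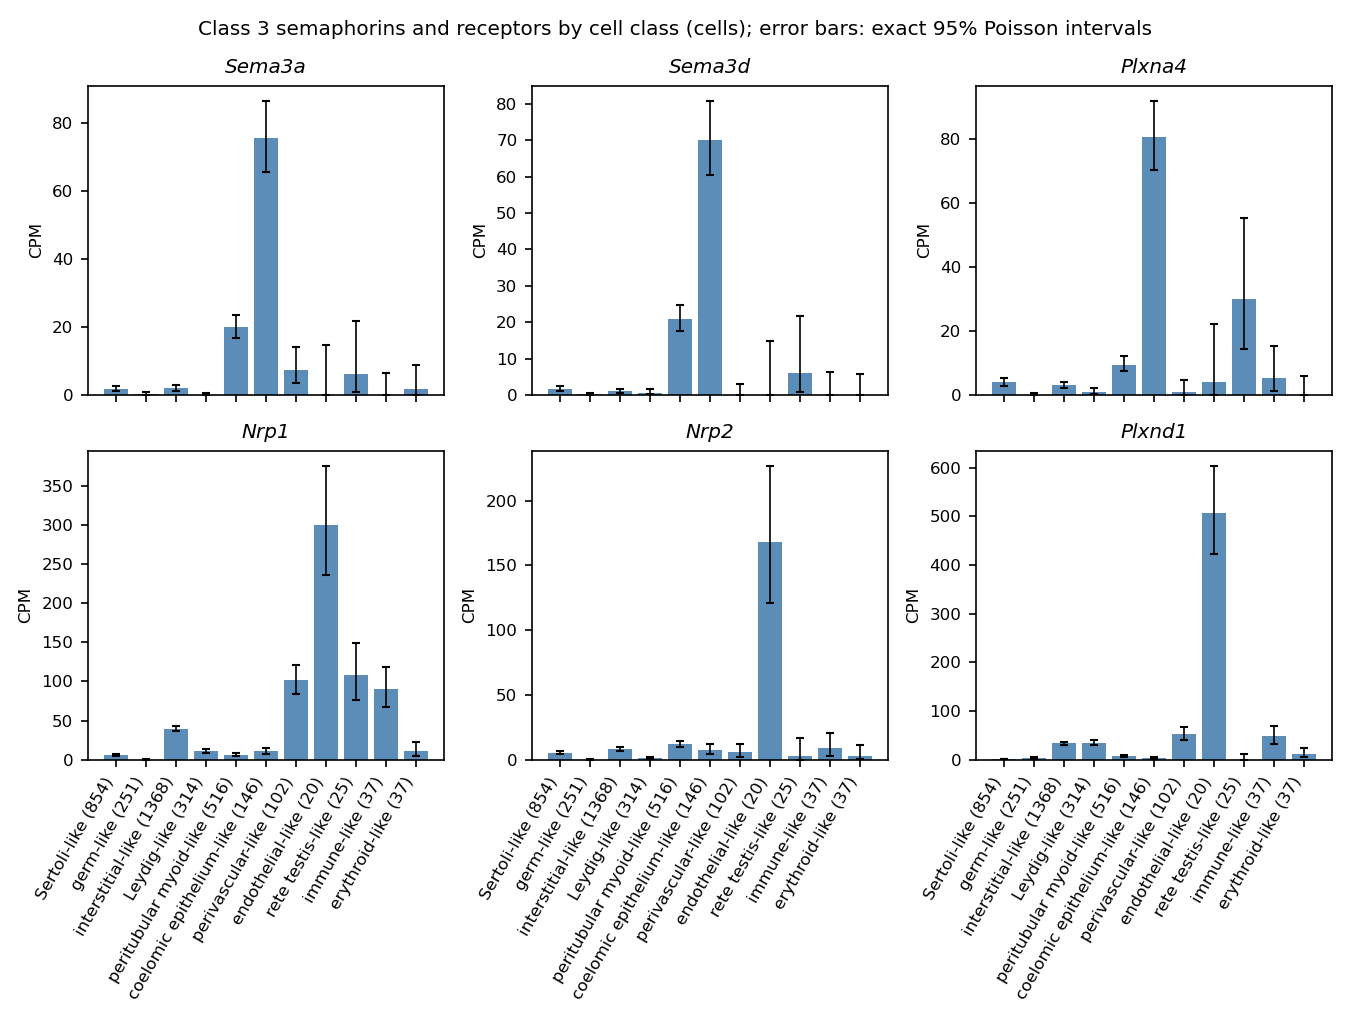
Bars give the level (CPM, linear axes from 0) of 2 secreted semaphorins and 4 receptors in each cell class, with exact 95% Poisson intervals and the number of cells in brackets. Sema3a, Sema3d and Plxna4 peak in the 146 coelomic epithelium-like cells, whereas Nrp1, Nrp2 and Plxnd1 peak in the 20 endothelial-like cells.

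*Slit2*, its receptor *Robo2* and 2 ephrins were the most abundant guidance genes of the interstitium. *Robo2* (chr16:73891839-74411825, minus strand) had the highest level of any measured gene in a named class of at least 30 cells, 297 CPM (95% interval 288 to 306) in interstitial-like cells. It was at 174 CPM in peritubular myoid-like, 132 CPM in Leydig-like and 126 CPM in perivascular-like cells, and at 57.0 CPM in coelomic epithelium-like cells. *Slit2* (chr5:47983138-48307733, plus strand) was at 193 CPM (185 to 200.3) in interstitial-like cells, next highest in perivascular-like cells at 77.1 CPM (62.3 to 94.4), and at 57.8 CPM in peritubular myoid-like cells. The 152 unnamed cells held more of it, 257 CPM (228 to 289). The difference from all other cells was larger for the ligand, 6.87-fold (6.41 to 7.37) for *Slit2* and 4.99-fold (4.75 to 5.25) for *Robo2*. *Robo1* took another course and was highest in Leydig-like cells, at 42.0 CPM (36.9 to 47.6), with 23.1 CPM in Sertoli-like and 20.4 CPM in interstitial-like cells.

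**Figure D4:**
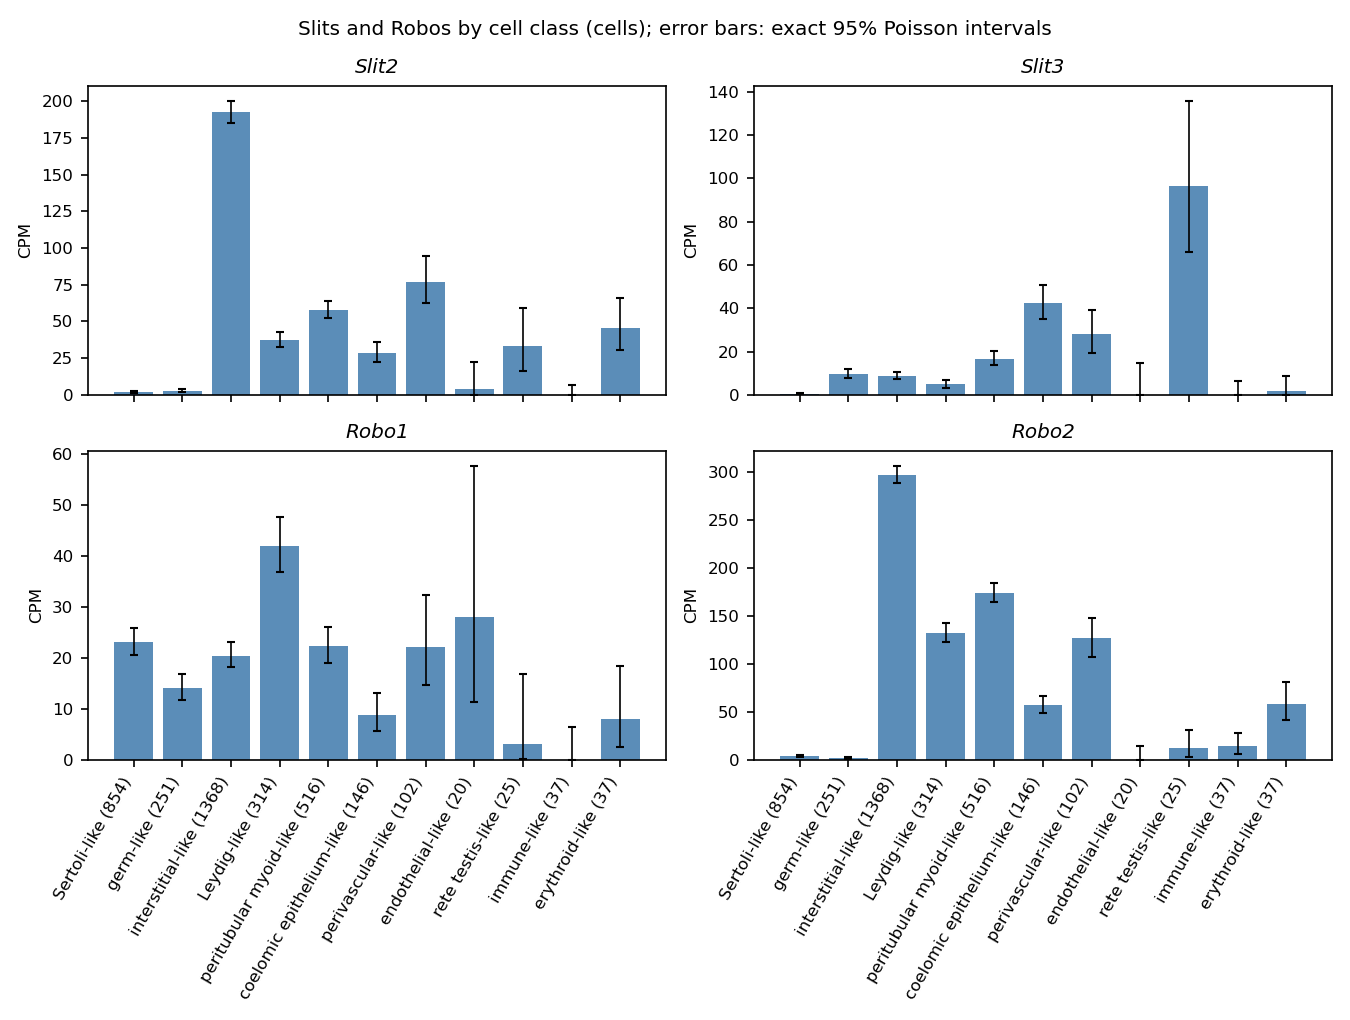
Bars give the level (CPM, linear axes from 0) of Slit2, Slit3, Robo1 and Robo2 in each cell class, with exact 95% Poisson intervals and the number of cells in brackets. Of the named classes shown, Slit2 and Robo2 peak in the 1368 interstitial-like cells and are near 0 in Sertoli-like and germ-like cells, Slit3 peaks in the 25 rete testis-like cells and Robo1 in the 314 Leydig-like cells.

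The ephrins of the interstitium were *Efnb1* and *Efna5*. *Efnb1*, an X-linked transmembrane ephrin (chrX:99136130-99148991, plus strand), was at 216 CPM (208 to 224) in interstitial-like cells and between 87.0 and 154 CPM in perivascular-like, Leydig-like, coelomic epithelium-like and peritubular myoid-like cells. *Efna5*, a lipid-anchored ephrin, was at 117 CPM (111 to 123), 9.82-fold (8.87 to 10.9) over the other cells, with perivascular-like cells next at 62.4 CPM. *Epha3*, a receptor of *Efna5*, was at 42.9 CPM (39.4 to 46.5) in interstitial-like cells and overlapped with perivascular-like cells at 32.0 CPM (22.8 to 43.7), and the unnamed cells held 173 CPM (149 to 199). *Unc5c* was at 51.3 CPM (47.5 to 55.2) in interstitial-like and 55.2 CPM (49.8 to 61.0) in peritubular myoid-like cells, which overlapped. *Ntn3* was spread over interstitial-like (38.0 CPM), peritubular myoid-like (35.2 CPM) and coelomic epithelium-like cells (38.3 CPM), and because it overlaps *Tbc1d24* on the same strand its counts are uncertain.

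Peritubular myoid-like cells led *Unc5c*, *Ephb2*, *Nrp2*, *Efna3* and *Plxna3*, in each case by less than 4-fold over the other cells. *Ephb2*, a receptor of B-type ephrins, was at 17.3 CPM (14.4 to 20.7), close to the 14.6 CPM (12.6 to 16.8) of interstitial-like cells. In this class *Efnb1* and *Robo2* were the most abundant, at 154 CPM (145 to 164) and 174 CPM (164 to 184). The secreted semaphorins *Sema3a* and *Sema3d*, at 19.8 and 21.0 CPM, set these cells apart from interstitial-like cells, which held 1.92 and 1.03 CPM.

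The interstitial-like cells were not uniform. Compared with the 860 cells led by *Colec11*, the 301 cells led by *Ntng1* were at least 2-fold higher in 4 measured genes (1.51% of all genes) and lower in 2 (1.52%). Higher were *Epha7* at 34.8 against 12.7 CPM, *Ephb2* at 29.7 against 10.7 CPM, *Plxnc1* at 49.3 against 24.2 CPM, and *Sema3d* at a low level. Lower were *Nrp1* at 14.1 against 48.2 CPM and *Epha3* at 18.8 against 50.9 CPM. *Robo2* differed little between these clusters, at 289 and 311 CPM.

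A cluster of 89 cells with *Gdf10* and *Foxp2* among its leading genes stayed unnamed, as the mean log2 ratio of its interstitial markers, 0.97, lay just under the naming limit of 1. Against the same 860 cells it was at least 2-fold higher in 9 measured genes (4.09%) and lower in 7 (2.79%). *Epha3* was at 224 CPM there against 50.9 CPM, 4.40-fold (3.68 to 5.24). Both neuropilins were higher, *Nrp2* by 7.74-fold (5.14 to 11.6) and *Nrp1* by 2.20-fold (1.73 to 2.77), and so were the secreted *Sema3a* (22.6 against 1.46 CPM) and *Sema3d* (13.1 against 0.366 CPM). *Robo2* was lower, at 73.8 against 311 CPM, although *Slit2* was at 332 CPM in these cells and 219 CPM in the 860. The difference in *Slit2*, 1.52-fold (1.335 to 1.725), was under the 2-fold limit, whereas *Robo2* was among the 7 lower genes. *Ntn1* was also higher, with 5 UMIs against 0.

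Leydig-like cells led *Epha4* and *Robo1*. *Epha4*, an Eph receptor that binds ephrins of both types, was at 26.2 CPM (95% interval 22.2 to 30.7), 4.99-fold (4.05 to 6.11) over the other cells, a log2 fold of 2.32 that was 1.63 with cells thinned to 3000 UMIs. The class comprised 132 cells led by *Cyp11a1*, the enzyme that starts steroid synthesis, and 182 cells led by *Nppc*, with a median of 21482 and 13818 UMIs per cell. In the *Cyp11a1*-led cells 21 of the 57 measured genes were at least 2-fold lower (11.1% of all genes) and 3 were higher (4.83%). Highest in level among the 21 were *Efnb1* at 56.3 against 189 CPM, *Robo2* at 71.3 against 213 CPM, and *Slit2* at 9.63 against 74.3 CPM.

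Other genes of the 21 were lower in level. *Sema5a* (3.01 against 21.1 CPM), *Unc5c* (1.81 against 14.7 CPM) and *Efna5* (2.41 against 16.7 CPM) followed the same course. *Efna2*, at 28.0 and 28.2 CPM, was not apart. *Slit3* had 0 UMIs in the *Cyp11a1*-led cells and was at 11.1 CPM in the *Nppc*-led cells. The 3 higher genes were *Robo1* at 59.0 against 19.5 CPM, *Plxnb1* at 22.0 against 10.7 CPM, and *Sema3b* at 12.0 CPM against 1 UMI. The 2 Robo receptors of the Leydig-like class thus had opposite orders, *Robo1* being 3.03-fold (2.20 to 4.23) higher and *Robo2* 2.98-fold lower in the *Cyp11a1*-led cells. *Epha4* was at 31.0 and 19.9 CPM and was not among the genes apart.

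**Figure D5:**
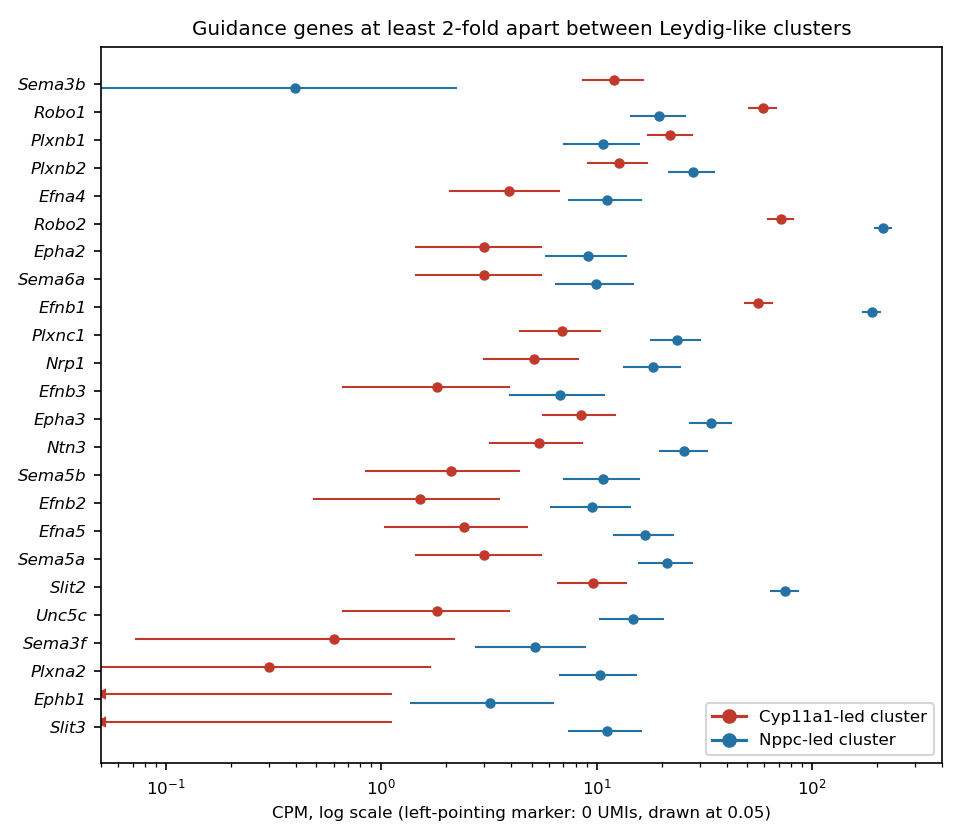
Each row is 1 of the 24 measured guidance genes at least 2-fold apart between the 132 Cyp11a1-led (red) and the 182 Nppc-led (blue) Leydig-like cells, with the level on the horizontal axis (CPM, log scale) and lines for exact 95% Poisson intervals. Red lies to the right in Sema3b, Robo1 and Plxnb1 and to the left in the other 21.

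The 20 endothelial-like cells, which carried all 10 endothelial markers, were too few to be ranked, and their intervals were wide. Of the 57 measured genes, 9 were at least 4-fold higher in them than in all other cells (3.6% of all genes). *Plxnd1*, a plexin known for its part in vessel growth, was at 508 CPM (95% interval 423 to 604) there, against 52.5 CPM in perivascular-like cells, the highest of the ranked classes. *Nrp1* and *Nrp2*, which are also co-receptors of vascular endothelial growth factor, were at 299.9 CPM (236 to 376) and 168 CPM (121 to 227). The transmembrane semaphorins *Sema6a* and *Sema6d* were each at 136 CPM, with intervals of 94.2 to 190.0. *Ephb4*, the receptor of *Efnb2* that is known from veins, was at 96.0 CPM (61.5 to 143), and *Efna1*, *Efnb2* and *Robo4*, given above, complete the 9.

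Perivascular-like cells led 3 genes at 4-fold, *Nrp1*, *Unc5b* and *Sema3g* (1.41% of all genes were 4-fold higher in this class). *Nrp1* was at 102 CPM (84.6 to 121), overlapping the 90.3 CPM (67.5 to 119) of immune-like cells, and *Unc5b*, a netrin receptor also known from vessels, was at 50.1 CPM (38.3 to 64.3). *Sema3g* had 20 UMIs in this class, 16.4 CPM (10.0 to 25.3), and its order depended on the clustering. In 4 alternatives the perivascular-like class held 56 to 60 cells instead of 102, and there the log2 fold of *Sema3g* over the other cells was between -0.67 and -0.39. *Sema5a*, *Sema6d* and *Sema6a* were also highest in perivascular-like cells among the ranked classes, at 67.3, 48.4 and 45.1 CPM. *Sema5a* overlapped with interstitial-like cells at 49.9 CPM (46.2 to 53.8), and *Sema6a* with peritubular myoid-like cells at 33.5 CPM (29.3 to 38.1). All 7 peritubular myoid markers were seen in this class, with a summed level of 2988 CPM against 3686 CPM in peritubular myoid-like cells, and their part in these levels was not tested.

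The 25 rete testis-like cells had a profile that joined genes of several classes. Of the measured genes, 9 were at least 4-fold higher than in all other cells (2.43% of all genes), a count that asks for no more than 3 UMIs. Of the 9, *Plxna4*, *Epha5* and *Efna1* rested on 10, 5 and 6 UMIs, and *Efna1* was 4.79-fold (1.74 to 10.6) higher. *Epha4* reached 117 CPM (83.4 to 160.3), *Sema3c* 126 CPM (91.0 to 171), *Nrp1* 108 CPM (75.8 to 149.8), *Slit3* 96.2 CPM (65.8 to 136) and *Unc5b* 75.2 CPM (48.6 to 111). *Sema3c*, a secreted semaphorin, was at 66.9 CPM in coelomic epithelium-like and 61.2 CPM in interstitial-like cells. These cells also held Sertoli-led genes, with *Sema3b* at 39.1, *Sema6c* at 42.1 and *Sema7a* at 39.1 CPM, and *Ntn4* at 12.0 CPM (3.28 to 30.8). The *Ntn4* level rested on 4 UMIs, and at 5 median absolute deviations the class held 20 cells and 0 UMIs of it. All 10 Sertoli markers were seen in the 25 rete testis-like cells, with a summed level of 2862 CPM against 13349 CPM in Sertoli-like cells. The free-RNA measure was 14.9%, the highest of any class. The part of Sertoli RNA in these levels was not tested. *Sema3b* was higher in the rete testis-like than in the Sertoli-like cells.

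Of 44 listed pairs of a ligand and a receptor known to bind each other, 38 had both genes measured, and in 6 of the 38 the leading class was the same. Whether that share differs from the share among unrelated genes was not tested. In Sertoli-like cells these were *Sema7a* with *Plxnc1*, at 59.2 and 80.5 CPM, and *Sema5b* with *Plxna1*, at 61.7 and 61.3 CPM. In interstitial-like cells they were *Slit2* with *Robo2* and *Efna5* with *Epha3*, and in coelomic epithelium-like cells *Efnb2* with *Ephb4* and *Efnb3* with *Ephb3*. For *Epha3*, *Ephb4*, *Efnb3* and *Ephb3* the interval of the leading class overlapped that of another ranked class, so that their leading class is not settled. *Ephb4* was at 28.7 CPM in coelomic epithelium-like and 27.5 CPM in interstitial-like cells, with endothelial-like cells above both. The shared class says nothing about binding, because surface protein was not measured.

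In the other pairs the ligand and receptor had different leading classes, but not every lead was settled. *Efna2* was at 75.0 CPM in coelomic epithelium-like and 73.2 CPM in Sertoli-like cells. Its receptor *Epha5* was at 3.74 CPM in Sertoli-like and 3.68 CPM in coelomic epithelium-like cells, so that this pair may share a class. *Sema3a* and *Sema3d* were highest in coelomic epithelium-like cells, and *Nrp1*, which binds them, in perivascular-like cells at 102 CPM among ranked classes and in endothelial-like cells at 299.9 CPM among all. *Ntn1* was highest in germ-like cells, while *Unc5b* was highest, among ranked classes, in perivascular-like cells, with rete testis-like cells above them. The intervals of *Unc5c* in peritubular myoid-like and interstitial-like cells overlapped. *Efnb1* was highest in interstitial-like cells, whereas *Ephb1* was highest in Sertoli-like cells, in which *Efnb1* was at 44.4 CPM. *Efna1* was highest, among ranked classes, in coelomic epithelium-like cells, and its receptor *Epha2* in Sertoli-like cells.

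Of 51 other genes of these pathways, a list of co-receptors and intracellular effectors, 45 were measured and 10 had a leading class at least 4-fold above the other cells, against 25.1% of all genes. Sertoli-like cells led *Tiam1*, an activator of the small GTPase Rac, at 69.0 CPM and *Dpysl5*, a collapsin response mediator, at 20.5 CPM. Coelomic epithelium-like cells led *Kdr*, *Ablim1* and *Grip1*, and *Kdr*, a receptor of vascular endothelial growth factor, was at 36.4 CPM there and at 528 CPM in endothelial-like cells. Immune-like cells led *Fes*, *Vav3* and *Pak1*, interstitial-like cells *Ntng1* and perivascular-like cells *Crmp1*. Of the netrin receptors outside the Unc5 family, *Neo1* was present at 46.2 CPM over all kept cells, with coelomic epithelium-like cells highest at 96.4 CPM, whereas *Dcc* had 28 UMIs in all.

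The 11 sparse genes were *Sema3e*, *Sema4f*, *Sema6b*, *Plxnb3*, *Epha6*, *Epha8*, *Epha10*, *Slit1*, *Robo3*, *Ntn5* and *Unc5d*. Of the 37 UMIs of *Plxnb3*, 36 were in Sertoli-like cells, and of the 31 UMIs of *Sema3e*, 16 were in coelomic epithelium-like cells. At this depth no order can be given for the others, whose leading class held no more than 16 UMIs. The 20 measured genes outside the rule for named genes had leading levels between 3.74 and 67.3 CPM, with folds of 1.51 to 3.84 over the other cells. Among them were *Sema4c*, *Sema3f* and *Ephb4*, whose levels differed little between the coelomic epithelium-like, interstitial-like and peritubular myoid-like cells.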

How the data were processed

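Single-cell RNA of 1 control testis library was analysed, the label giving its group. The deposited UMI counts are raw, 1 value for each gene and barcode, and the authors obtained them with Cell Ranger on mm10 to which the sequence of the YFP reporter had been added. The submitters' processing notes name Cell Ranger 3.0.2 and 3.1.0, and the methods another version. Gene positions are from the GENCODE annotation of GRCm38, the same assembly as mm10.

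From 5421 barcodes, 372 with under 200 genes, 204 doublets (artificial-neighbour score, expected rate 4.04%) and 1023 cells beyond 3 median absolute deviations were removed. The last filter fell unevenly. Without it, and clustered anew, 1302 cells were Sertoli-like in place of 854 and 1508 interstitial-like in place of 1368. There were then 134 immune-like and 288 erythroid-like cells in place of 37 each. Clustering used Seurat 5.3.0 and sctransform 0.4.2 in R 4.3.3, with genes of at least 10 cells, 3000 variable genes less the 33 guidance genes among them, 30 components, resolution 0.8, with regression on the cell-cycle scores and the mitochondrial share. A cluster took the name of a list with at least 3 markers in at least 25% of its cells and a mean log2 ratio to the other cells, with 5 CPM added, of at least 1. It stayed unnamed where its median UMI count was under 1/3 of that of all kept cells and none of the list's markers was among its 10 leading genes. Levels and folds were computed in Python 3.11.15 with scipy 1.17.1, numpy 2.4.6 and pandas 2.3.3, and doublets were scored with scikit-learn 1.9.0. Class sums were scaled to CPM. A fold over all other kept cells used a floor of 3 counts where those cells held fewer. The 2-fold calls between 2 groups used the same floor, whereas the printed ratios between 2 groups had none. Poisson and Clopper-Pearson intervals are exact at 95%. The level and fold steps were tested on simulated data, and the clustering was not.

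The rule for values by class took genes whose leading class was at least 4-fold above the other cells, and the 6 genes of highest leading level in each of the 4 families, 37 genes. Values of other guidance genes (*Plxnd1*, *Nrp2*, *Sema3c*, *Sema4a*, *Sema4b*, *Sema5a*, *Sema6a*, *Sema6d*, *Plxnb1*, *Epha7*, *Ephb2* and *Ephb4* among them) were chosen after they were seen. The members, marker lists, pathway list and pairs were chosen with earlier results of these data known. Alternatives changed the outlier, doublet, resolution, normalization, depth, UMI and fold settings.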

Additional observations from a re-analysis of the deposited data

How the results depend on the processing

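Most counts moved by less than 1.5 times under other settings. The number of measured genes with a leading class at least 4-fold above the other cells was 27, and 48 at a fold of 2. The number led by coelomic epithelium-like cells was 8, and 5 without doublet removal. Of the 40 genes at least 2-fold apart between Sertoli-like cells and stroma, 24 were at least 4-fold apart, and of the 18 higher in Sertoli-like cells, 8 were. No share over all genes was computed at changed settings, so that these counts show only how the numbers move. Of 440 values of named genes under alternatives, 436 kept the sign of their log2 fold and 350 lay within the counting interval of the reported value. The 4 that changed sign were *Sema3g* in perivascular-like cells, with log2 folds of -0.41 at 5 median absolute deviations, -0.39 without an outlier filter, -0.67 without doublet removal and -0.53 with log-normalization, where that class held 56 to 60 cells in place of 102. The cause was not tested. Some genes near the 4-fold limit, a log2 fold of 2, fell under it. Without doublet removal these were *Robo4* (0.92, against 2.44) and *Sema3b* (1.87) in Sertoli-like cells and *Efna1* (1.80, against 2.65) in coelomic epithelium-like cells, and *Sema3b* did so with the looser outlier filters too (1.83 and 1.90). With cells thinned to 3000 UMIs they were *Efna1* (1.49), *Ephb3* (1.73) and *Slit3* (1.97) in coelomic epithelium-like cells, *Plxna1* (1.97) in Sertoli-like cells, *Epha4* (1.63) in Leydig-like cells and *Unc5b* (1.25) and *Sema3g* (1.80) in perivascular-like cells. Thinned to 5000 UMIs, or with the mean of per-cell CPM, *Ephb3*, *Ephb6*, *Epha4*, *Nrp1*, *Sema3g* and *Sema5b* lay between 1.85 and 1.99 in at least 1 of the settings. With classes of at least 20 cells ranked, a choice made after seeing the data, 34 genes were led at 4-fold, 8 of them by Sertoli-like and 6 by coelomic epithelium-like cells, and without the unnamed cells, also chosen afterwards, 30. The endothelial-like class held 20 cells, 45 without doublet removal and none with a doubled doublet rate. At the doubled rate no cells were named perivascular-like, immune-like or rete testis-like either. *Nrp1*, *Unc5b*, *Sema3g* and *Sema4d*, led by classes missing there, have no value for that setting among the 440. No paired analysis was possible because there was 1 library and no replicate number. Depth limits the small classes most. The level of 3 UMIs, the floor of the counts, was 12.0 CPM in endothelial-like and 9.02 CPM in rete testis-like cells. It was 5.21 CPM in immune-like and 0.221 CPM in interstitial-like cells. The interval of a count of 0 reached further, to 14.75 CPM in endothelial-like and 11.1 CPM in rete testis-like cells.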
